A study of Mus musculus with 6 samples.

Results

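Potassium channels, chloride channels with their related proteins, and channels of the transient receptor potential (TRP) family were compared in mouse colon. Colon of mice with Hdac1 and Hdac2 targeted in the intestinal epithelium was set against colon of control mice. The members were taken by symbol: Kcn genes that end in a number, the numbered Clca, Clcn, Clic, Ano, Best, Trpc, Trpm and Trpv genes, and Cftr. Of 18193 genes that had a probe set of their own on the array, 127 matched, through 248 of 45037 probe sets, and where a gene had several, the brightest on average over the 6 arrays stands for it. They comprised 80 potassium channel subunits, 29 chloride channels and related proteins and 18 TRP channels. The HDAC1/2 intestinal epithelial cell (IEC) deficient mice carried floxed Hdac1 and Hdac2 alleles and a villin-Cre transgene, and the labels call their genotype HDAC1/2 KO. The villin promoter drives Cre in epithelial cells of the intestine and not in muscle, nerve or immune cells of the gut wall. The control mice are labelled wild type, and whether they carried floxed alleles without Cre is not given in the sources used here. The study's methods give 3 mice per group, and there were 3 arrays per group. Which mouse or mice gave the RNA of each array is not stated. All mice were 4 months old, as the study's text gives for the array samples, received no treatment and were fed a normal diet.

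The colon absorbs water and salt and secretes chloride and bicarbonate with its mucus. In the secreting cell, chloride enters across the basolateral membrane and leaves through CFTR and calcium-activated channels of the apical membrane, while potassium channels let potassium back out and so keep the membrane potential that drives the chloride. TRP channels admit calcium, magnesium or sodium, some in epithelial cells that absorb these ions and others in sensory nerve endings, muscle and leukocytes. Outside the epithelium, the voltage-gated, calcium-activated and inward rectifier potassium channels set the excitability of smooth muscle and enteric neurons.

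Colon epithelium is the source named in the labels, whereas the extraction protocol describes total RNA of the colon, and every value is a log2 signal of such mixed RNA, in which fewer cells of a type and less RNA per cell cannot be told apart. Hdac1 was lower on all deficient arrays (log2 fold change -1.30, limma adjusted p = 1.06e-06), while Hdac2 had a log2 fold change of 0.05 and did not pass (limma adjusted p = 0.475). Whether its probe sets lie in the deleted exons is unknown here, and its signal therefore does not bear on the labels. By immunofluorescence the study found no epithelial HDAC1 protein, while HDAC2 protein remained in some crypts and villi. Of the epithelium markers, 8 of 8 were measured, 4 passed as higher and 1 as lower. The share that passed was 62.5%, beside 60.7% of all genes above the 40th percentile of mean signal, where these markers lie. Krt20 at 0.67, Vil1 at 0.35, Cdh17 at 0.24 and Krt19 at 0.14 were higher. Epcam at -0.16 was lower, and Cdh1, Krt8 and Krt18 did not pass. The mean log2 signal of the 8 was 13.81 to 13.84 on deficient arrays, against 13.68 to 13.69 on control arrays. The arrays also differed in sex-linked RNA (mean ± SD, n = 3 arrays each). Xist was at 12.02 ± 0.0333 in deficient colon and 12.85 ± 0.034 in control colon. The Y-linked Eif2s3y was at 8.34 ± 0.137 in deficient colon and 4.09 ± 0.235 in control colon. Each deficient array held both signals, with Xist at 11.99 to 12.06 and Eif2s3y at 8.22 to 8.49. Whether an array held RNA of more than 1 mouse was not tested. Exocrine pancreas markers averaged 12.08 to 12.12 on deficient arrays, against 7.08 to 7.28 on control arrays. Of the 7 measured, 6 were higher and Cela1, at -0.81, was lower. Squamous epithelium markers averaged 7.71 to 7.81 on deficient arrays, against 9.18 to 9.27 on control arrays. The part of these differences in any result given here was not tested.

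Of the 127 channel genes, 16 were higher and 33 lower in HDAC1/2 deficient colon at a Benjamini-Hochberg adjusted p under 0.05 in limma, and 78 did not pass. The share of channel genes that passed was 38.6%, beside 50.4% of all 18193 genes. In separate directions, 12.6% of the channel genes were higher, beside 21.9% of all genes, and 26.0% were lower, beside 28.4%. Changes were small in most of them, with a median absolute log2 fold change of 0.14 and a median signed change of -0.05, beside 0.17 and -0.02 over all genes. More than 2-fold changes were found in 6 genes. Clca4b, Clca4a and Trpv1 were higher, beside 2.25% of all genes, and Best2, Kcnk5 and Kcnf1 were lower, beside 1.82%. In 63 of the 127 genes the deficient and control arrays did not overlap, which was the case for 60.9% of all genes. The 78 genes that did not pass had log2 fold changes between -0.28 and 0.23, and 60 channel genes had an unadjusted p under 0.05. By signal level, among the 88 channel genes above the 40th percentile of mean signal 44.3% passed, beside 60.7% of all genes above it, and among the 39 dimmer ones 25.6%, beside 18.0% of all dimmer genes.

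**Figure D1:**
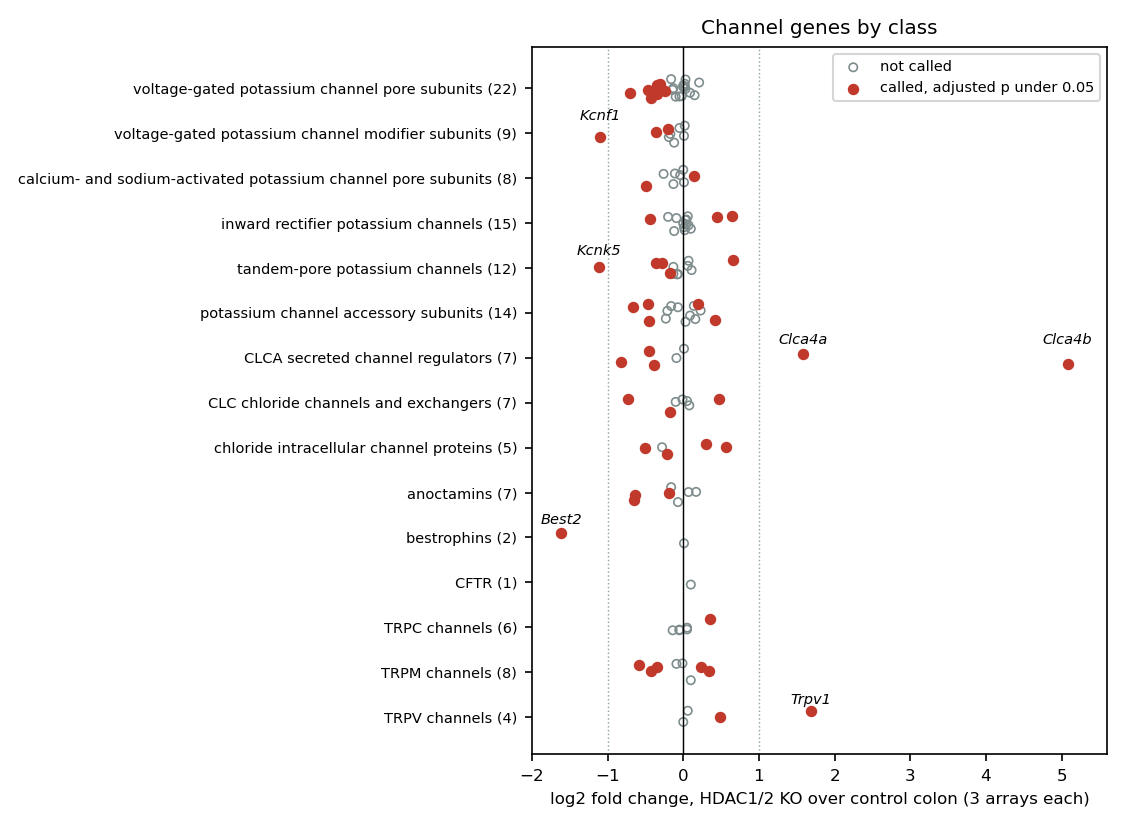
Each point is 1 of the 127 channel genes, with the log2 fold change of HDAC1/2 deficient over control colon on the horizontal axis and the class of the gene on the vertical axis. Filled points are genes called by limma (adjusted p under 0.05), and the genes more than 2-fold apart are named, from Best2 at -1.61 to Clca4b at 5.08.

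By division, 55.2% of the chloride channels and related proteins passed (5 higher and 11 lower of 29), 44.4% of the TRP channels (5 higher and 3 lower of 18) and 31.2% of the potassium channel subunits (6 higher and 19 lower of 80), beside 50.4% of all genes. The first 2 shares lie near that of all genes. Among the voltage-gated potassium channels, whose pores open on depolarization, 7 of 22 pore subunits and 3 of 9 modifier subunits were lower and none of either kind was higher. The lower share of the pore subunits was 31.8% and of the modifiers 33.3%, near the 28.4% of all genes. Inward rectifiers, which pass potassium most readily near the resting potential, had 2 higher and 1 lower of 15, and the tandem-pore channels, which carry background potassium current, 1 higher and 4 lower of 12. The anoctamins, which are calcium-activated chloride channels or lipid scramblases, had 3 lower of 7 and the CLC family of chloride channels and exchangers 1 higher and 2 lower of 7. Of the TRPM channels 2 were higher and 3 lower of 8, of the TRPV channels 2 were higher of 4, and of the TRPC channels 1 was higher of 6.

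Clca4b had the largest difference of the 127 genes. It encodes a CLCA protein, one of a family of metalloprotease-like proteins that regulate calcium-activated chloride conductance and, in the case of Clca1, process mucus. Its log2 values were 13.51, 13.37 and 13.48 in HDAC1/2 deficient colon, against 8.45, 8.37 and 8.28 in control colon. All 3 deficient arrays lay far above all 3 control arrays, a fold of 33.9 (log2 fold change 5.08, SE 0.0604, limma adjusted p = 7.84e-09). The neighbouring paralogue Clca4a had values of 13.72, 13.72 and 13.74 in deficient colon, against 12.17, 12.16 and 12.10 in control colon, and was also higher without overlap (log2 fold change 1.58, SE 0.0407, limma adjusted p = 2.17e-07). Each of these 2 genes has a single probe set, and since the paralogues are close in sequence, how far the probes tell them apart was not tested.

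**Figure D2:**
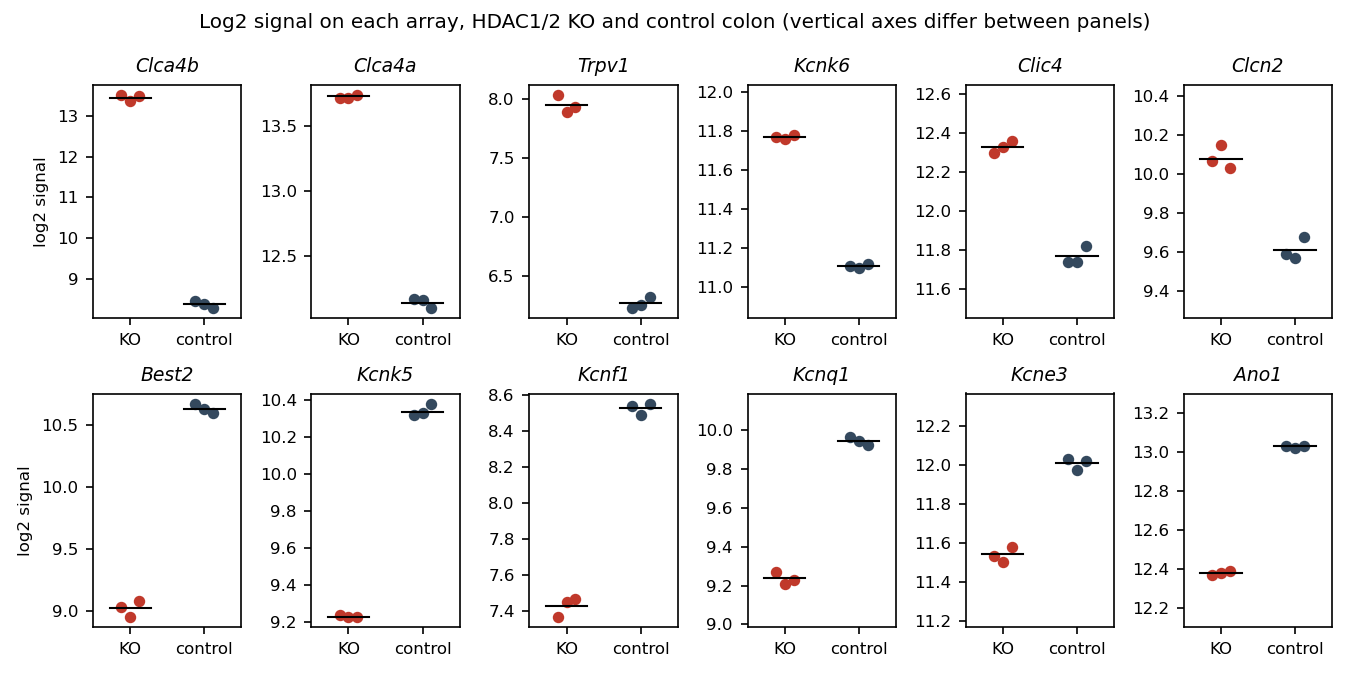
Log2 signal on each array for 12 channel genes, with HDAC1/2 deficient (KO) arrays to the left of control arrays and a bar at the mean of 3 arrays; the upper panels hold genes that were higher in deficient colon, the lower panels genes that were lower, and the vertical axes differ. The groups do not overlap in any panel, and the gap is widest for Clca4b (13.37 to 13.51 in deficient colon, against 8.28 to 8.45 in control colon).

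None of the other 5 CLCA genes passed as higher. Clca1, the major CLCA protein of goblet cell mucus, had log2 values of 14.44, 14.42 and 14.43 in deficient colon, against 14.80, 14.83 and 14.80 in control colon, and was lower (log2 fold change -0.38, limma adjusted p = 0.000143). This probe set lay close to the highest value of the table, 14.85, and the second, dimmer Clca1 probe set was further apart, at 9.06, 9.04 and 9.05 in deficient colon against 10.74, 10.73 and 10.72 in control colon (log2 difference -1.68, limma adjusted p = 1.17e-07). Clca2, known from skin and other stratified epithelia, was dim at 4.85, 5.06 and 4.85 in deficient colon, against 5.81, 5.52 and 5.90 in control colon (log2 difference -0.82, limma adjusted p = 0.000493). Squamous epithelium markers were lower in 6 of 8, while the other 2, Sprr1a at 1.64 and Krt13 at 0.29, were higher. The part of squamous epithelium in the Clca2 value was not tested. Clca3a2 fell by 0.45 on the log2 scale, but its second probe set, at -0.3, did not pass. Clca3a1 at -0.09 and Clca3b at 0.01 did not pass. In the RefSeq annotation (GRCm38.p6) these genes lie side by side on chromosome 3 in the order Clca3a1, Clca3a2, Clca3b, Clca4b, Clca4a, Clca1, Clca2, with no other protein-coding gene between them, so the 2 genes that were higher are next to each other and next to Clca1, which was lower. The pseudogene Clca4c-ps, which lies between Clca3b and Clca4b and is not counted among the 127, had a log2 fold change of 2.75. It was named after its value was seen.

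**Figure D3:**
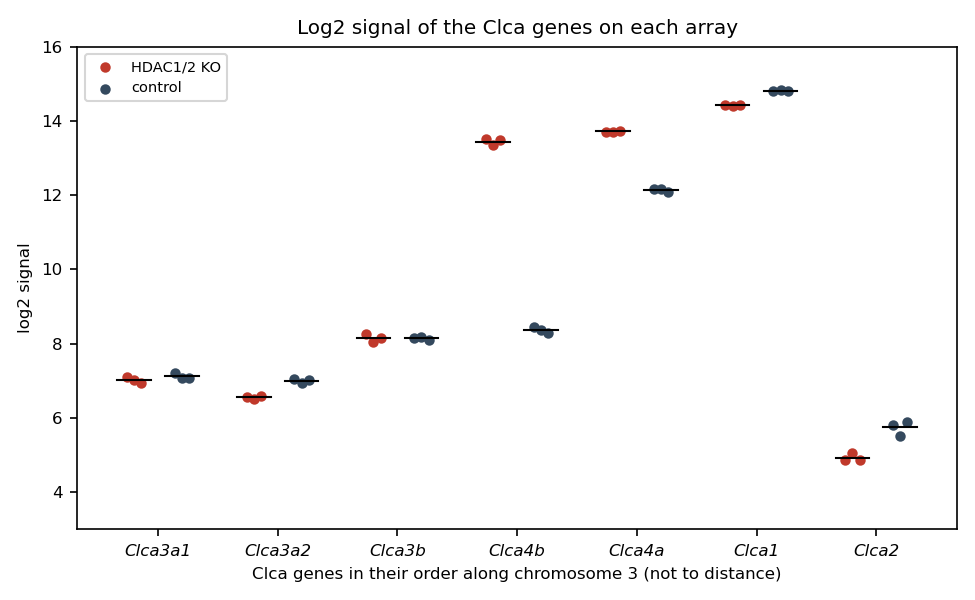
Log2 signal on each HDAC1/2 deficient (KO) and control array for the 7 CLCA genes, left to right in their order on mouse chromosome 3 (GRCm38.p6), with a bar at the mean of 3 arrays. Deficient arrays lie above control arrays for the neighbours Clca4b and Clca4a, below them for Clca3a2, Clca1 and Clca2, and overlap them for Clca3a1 and Clca3b; levels of different genes come from different probes and are not comparable.

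Promoter sequences are shown for the genes that differed more than 2-fold, so that the most strongly raised gene can be set beside others that were raised or lowered. Of these 6 genes, 4 had an entry in the RefSeq promoter table (GRCm38.p6) used here, which holds 101 of the 127 channel genes. Each line gives the 250 bases before the annotated start, 5′ to 3′ on the strand of the gene, and capitals mark a match on either strand to the TATA box (spelled TATAAA), a caudal homeobox motif as bound by CDX2 (spelled TTTATG), the motif of GATA factors (spelled AGATAA), the GC box bound by SP1 (spelled GGGCGG) or the CCAAT box (those 5 letters).
Clca4b (chr3:144932530-144932779, minus strand): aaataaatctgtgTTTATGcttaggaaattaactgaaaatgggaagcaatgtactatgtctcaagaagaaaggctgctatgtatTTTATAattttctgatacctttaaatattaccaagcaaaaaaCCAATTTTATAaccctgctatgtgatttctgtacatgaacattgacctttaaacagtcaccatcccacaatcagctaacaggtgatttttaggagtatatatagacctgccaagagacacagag
Trpv1 (chr11:73233899-73234148, plus strand): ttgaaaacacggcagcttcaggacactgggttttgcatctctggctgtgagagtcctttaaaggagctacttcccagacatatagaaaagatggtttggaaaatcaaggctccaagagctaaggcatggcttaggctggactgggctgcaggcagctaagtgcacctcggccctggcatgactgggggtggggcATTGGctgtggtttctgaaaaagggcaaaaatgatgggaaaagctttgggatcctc
Kcnf1 (chr12:17176889-17177138, minus strand): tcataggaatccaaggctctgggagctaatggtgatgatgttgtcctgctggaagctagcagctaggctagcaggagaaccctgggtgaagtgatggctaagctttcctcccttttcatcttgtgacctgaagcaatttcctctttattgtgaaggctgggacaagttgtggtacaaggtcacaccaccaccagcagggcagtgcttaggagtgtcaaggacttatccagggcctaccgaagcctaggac
Kcnk5 (chr14:20181783-20182032, minus strand): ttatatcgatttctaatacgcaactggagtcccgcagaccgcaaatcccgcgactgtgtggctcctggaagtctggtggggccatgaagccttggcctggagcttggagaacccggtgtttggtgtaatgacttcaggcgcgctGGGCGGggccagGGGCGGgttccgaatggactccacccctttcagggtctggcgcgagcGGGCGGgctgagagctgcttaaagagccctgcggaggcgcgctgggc
The Clca4b window had 33.2% GC and 0 CpG, against medians of 52.4% GC and 6 CpG over 32851 promoter windows of the same length. It held the TATAAA letters 2 times, the caudal motif 1 time and the CCAAT box 1 time. Both TATAAA matches are on the opposite strand and read TTTATA here. The CCAAT box directly adjoins 1 of them in a single capital run, without overlap. The lower-case tatatata nearer the start is not a match to the TATAAA letters. Whether any of these strings acts in the promoter was not tested. Trpv1 had 50.8% GC, 2 CpG and 1 CCAAT box, Kcnf1 had 51.2% GC, 1 CpG and no match, and Kcnk5 had 62.8% GC, 19 CpG and 3 GC boxes. Over all promoter windows, the TATA box occurred in 12.4%, the caudal motif in 10.8%, the GATA motif in 9.99%, the GC box in 32.7% and the CCAAT box in 33.8%. A match is a string of letters and not a bound site.

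The potassium channels of the colonic epithelium moved in both directions. Kcnq1 is the pore and Kcne3 the subunit of the basolateral channel that opens with cAMP during secretion. Kcnq1 had log2 values of 9.27, 9.21 and 9.23 in HDAC1/2 deficient colon, against 9.96, 9.94 and 9.92 in control colon, and was lower on every deficient array (log2 fold change -0.70, SE 0.0399, limma adjusted p = 8.62e-06). Kcne3 was lower as well, with 11.53, 11.50 and 11.58 in deficient colon, against 12.03, 11.97 and 12.02 in control colon (log2 difference -0.47, limma adjusted p = 8.97e-05). As folds of the control signal, Kcnq1 was at 0.615 and Kcne3 at 0.722.

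Kcnk5, a tandem-pore channel that opens at alkaline pH, was the potassium channel with the largest fall. Its values were 9.24, 9.23 and 9.23 in deficient colon, against 10.32, 10.33 and 10.38 in control colon (log2 difference -1.11, SE 0.0396, limma adjusted p = 1.03e-06), and its second probe set was lower too, at -0.56. Kcnk6, a tandem-pore channel found in vessels and leukocytes as well as epithelia, went the other way, with 11.77, 11.76 and 11.78 in deficient colon, against 11.11, 11.10 and 11.12 in control colon (log2 difference 0.66, limma adjusted p = 8.62e-06). The related Kcnk1 had 12.23, 12.13 and 12.17 in deficient colon, against 12.13, 12.10 and 12.09 in control colon, a difference of 0.07 (SE 0.0438) that did not pass (limma adjusted p = 0.262).

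The calcium-activated potassium channels differed between the large-conductance and the intermediate-conductance type. Kcnma1, the large-conductance channel through which colonic crypts secrete potassium and which smooth muscle also expresses, had 9.23, 9.24 and 9.23 in deficient colon, against 9.74, 9.70 and 9.74 in control colon (log2 difference -0.49, limma adjusted p = 4.05e-05). Over 5 probe sets the log2 fold change ran between -0.49 and 0.07, and 2 of them passed as lower. Kcnn4, the intermediate-conductance channel of epithelium and lymphocytes, had 11.24, 11.28 and 11.24 in deficient colon, against 11.14, 11.06 and 11.14 in control colon. Its difference of 0.14 passed narrowly (SE 0.0427, limma adjusted p = 0.0313) and lost its call when any 1 array was left out, with adjusted p between 0.053 and 0.0909.

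Among inward rectifiers, Kcnj10 and Kcnj16, which assemble into 1 channel in transporting epithelia and glia, were both higher. Kcnj10 had 7.40, 7.33 and 7.49 in deficient colon, against 6.91, 7.01 and 6.94 in control colon (log2 difference 0.45, limma adjusted p = 0.000364). Kcnj16 was dim, at 5.30, 5.29 and 5.30 in deficient colon, against 4.49, 4.60 and 4.85 in control colon (log2 difference 0.65, limma adjusted p = 0.000603), and its second probe set was also higher, at 0.35. Of 5 glial markers measured, 2 were lower and 3 did not pass, with log2 fold changes of -0.45 to 0.23, and the list averaged 7.45 to 7.63 on deficient arrays, against 7.57 to 7.63 on control arrays. The part of glia in the Kcnj10 and Kcnj16 values was not tested.

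Of the apical and basolateral chloride channels, Cftr, the cAMP-activated channel of secretion, had 11.36, 11.31 and 11.34 in HDAC1/2 deficient colon, against 11.27, 11.17 and 11.27 in control colon. The arrays did not overlap, but the difference of 0.10 (SE 0.0463) did not pass (limma adjusted p = 0.122). Clcn2, an inwardly rectifying chloride channel of surface enterocytes, was higher, with 10.07, 10.15 and 10.03 in deficient colon, against 9.59, 9.57 and 9.68 in control colon (log2 difference 0.47, limma adjusted p = 0.000252).

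Best2 and Ano1, which encode calcium-activated anion channels, were lower. Best2 encodes a bestrophin that passes bicarbonate in colonic goblet cells of the mouse, and its values were 9.03, 8.95 and 9.08 in deficient colon, against 10.67, 10.63 and 10.60 in control colon. It was the channel gene with the largest fall, to a fold of 0.327 (log2 fold change -1.61, SE 0.048, limma adjusted p = 4.31e-07), while Best1 was at 0.01 and did not pass. Ano1, a calcium-activated chloride channel of epithelia and of the interstitial cells of Cajal that pace the gut, had 12.37, 12.38 and 12.39 in deficient colon, against 13.03, 13.02 and 13.03 in control colon (log2 difference -0.65, limma adjusted p = 9.92e-06). Ano6, a scramblase that exposes phosphatidylserine, had 9.68, 9.63 and 9.69 in deficient colon, against 10.33, 10.28 and 10.30 in control colon (log2 difference -0.64, limma adjusted p = 1.68e-05), and Ano10 fell by 0.19.

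Markers of the cells in which Best2, Clca1 and Ano1 are known to be found also differed. Goblet cell markers averaged 13.21 to 13.23 on deficient arrays, against 13.69 to 13.70 on control arrays. Of the 8, Ang4 at -2.86, Fcgbp at -0.96, Tff3 at -0.38 and Spink4 at -0.25 were lower, Spdef at 0.63 was higher, and Muc2, Zg16 and Agr2 did not pass. Markers of interstitial cells of Cajal averaged 8.42 to 8.50 on deficient arrays, against 8.77 to 8.89 on control arrays, with Kit at -0.99 and Thbs4 at -0.54 lower and the other 2 of 4 not past the test. These genes were chosen as markers and named with their values in view, and the part of either cell type in the channel results was not tested.

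Exchangers and intracellular chloride channel proteins were also split by direction. The endosomal chloride-proton exchanger Clcn4 had 10.17, 10.24 and 10.19 in deficient colon, against 10.95, 10.85 and 10.97 in control colon (log2 difference -0.73, limma adjusted p = 1.84e-05), and the related Clcn3 fell by 0.18, with 4 of its 5 probe sets lower. The CLIC proteins are soluble proteins of glutathione transferase fold that can insert into membranes. Clic4 had 12.30, 12.33 and 12.36 in deficient colon, against 11.74, 11.74 and 11.82 in control colon (log2 difference 0.56, limma adjusted p = 4.31e-05), and all 3 of its probe sets were higher, at 0.56 to 0.90. Clic1 was higher by 0.30, whereas Clic6 had 11.21, 11.23 and 11.22 in deficient colon, against 11.73, 11.71 and 11.72 in control colon (log2 difference -0.50, limma adjusted p = 3.5e-05). For Clic5 the brightest probe set was lower at -0.21, but probe sets of this gene passed in both directions, between -0.35 and 0.34.

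The TRP channels with the largest rises were of the TRPV family. Trpv1, the capsaicin and heat receptor of sensory nerve endings, had 8.03, 7.89 and 7.93 in HDAC1/2 deficient colon, against 6.23, 6.25 and 6.32 in control colon, with no overlap and a fold of 3.22 (log2 fold change 1.69, SE 0.0516, limma adjusted p = 4.86e-07). It has 1 probe set. Trpv6, the apical channel of epithelial calcium absorption, had 7.45, 7.47 and 7.52 in deficient colon, against 6.96, 7.03 and 6.97 in control colon (log2 difference 0.49, limma adjusted p = 7.73e-05), and Trpv2 at 0.06 and Trpv4 at 0.00 did not pass.

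Of the 4 TRPM channels of the epithelial list, 3 were lower and Trpm6 did not pass. Trpm7, a magnesium and calcium channel fused to a kinase, had 10.20, 10.07 and 10.22 in deficient colon, against 10.82, 10.74 and 10.70 in control colon (log2 difference -0.59, limma adjusted p = 0.000121), with 3 of its 4 probe sets lower. Trpm6, which carries magnesium absorption in the colon, had 10.20, 10.25 and 10.21 in deficient colon, against 10.25, 10.20 and 10.22 in control colon, and its difference of -0.01 (SE 0.04) did not pass and took either sign under other settings. Trpm4 and Trpm5 are sodium-permeable channels opened by calcium, the second a component of taste and tuft cell signalling. Trpm4 had 9.85, 9.90 and 9.83 in deficient colon, against 10.30, 10.23 and 10.34 in control colon (log2 difference -0.43, limma adjusted p = 0.000213). Trpm5 had 6.54, 6.49 and 6.60 in deficient colon, against 6.84, 6.90 and 6.92 in control colon (log2 difference -0.35, limma adjusted p = 0.000737), while of 8 tuft cell markers only Dclk1 passed, at 0.21, and the list averaged 7.15 to 7.16 on deficient arrays, against 7.17 to 7.21 on control arrays. Trpc2, a pheromone transduction channel of the mouse vomeronasal organ, was dim, at 5.70, 5.65 and 5.57 in deficient colon, against 5.41, 5.33 and 5.10 in control colon (log2 difference 0.36, limma adjusted p = 0.00989).

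Over the 21 measured genes of the list of colonic epithelium channels, 6 were higher, 12 lower and 3 did not pass, so that 85.7% passed, beside 50.4% of all genes and 60.7% of all genes above the 40th percentile of mean signal, where 20 of the 21 lie. Their median log2 fold change was -0.35, beside -0.02 over all genes. The 6 higher genes were Kcnk6, Kcnj10, Kcnj16, Kcnn4, Clcn2 and Trpv6, and the 3 that did not pass were Cftr, Kcnk1 and Trpm6. The mean signal of the list was 9.96 to 9.99 on deficient arrays, against 10.18 to 10.21 on control arrays. The listed symbols Clca3 and Clca4 match no mouse symbol here, and the mouse paralogues Clca4a and Clca4b are therefore outside these 21. With both added, a choice made after their values were seen, 8 of 23 were higher and 12 lower, the median was -0.18, and the mean signal was 10.27 to 10.30 on deficient arrays, against 10.19 to 10.20 on control arrays. The mean log2 fold change of the list was then 0.09, in place of -0.22, so the direction of the mean signal depends on these 2 genes.

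**Figure D4:**
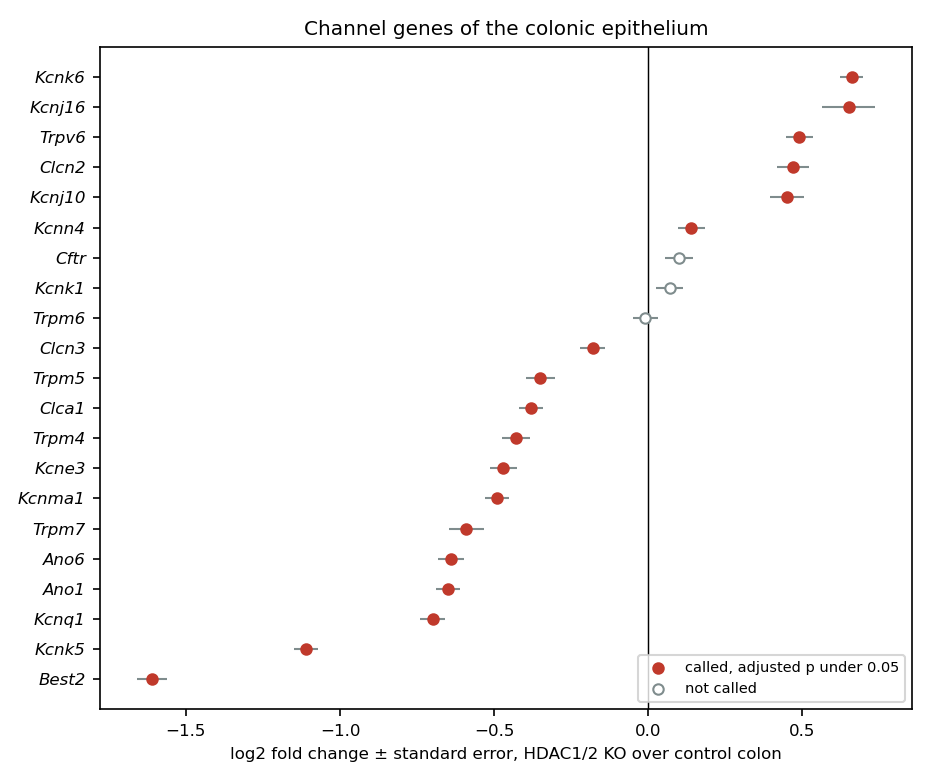
Log2 fold change of HDAC1/2 deficient over control colon, with error bars of 1 SE from limma, for the 21 measured genes of the colonic epithelium channel list. Filled points were called at an adjusted p under 0.05, and the values run from Best2 at -1.61 to Kcnk6 at 0.66.

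Channels known from smooth muscle and interstitial cells were mostly below the threshold. Of 15 measured, 4 were lower and none higher (26.7% passed, beside 50.4% of all genes), with a median log2 fold change of -0.05. Besides Ano1 these were Kcnd3, Kcnj8 and Kcnk3. Kcnd3, a pore of fast inactivating potassium current, had 9.14, 9.17 and 9.16 in HDAC1/2 deficient colon, against 9.61, 9.56 and 9.72 in control colon (log2 difference -0.47, limma adjusted p = 0.00022), but its other 3 probe sets, at -0.07 to 0.04, did not pass. Kcnj8, a pore of ATP-sensitive potassium channels of vessel and gut muscle, had 8.36, 8.49 and 8.41 in deficient colon, against 8.87, 8.81 and 8.90 in control colon (log2 difference -0.44, limma adjusted p = 0.000299). Kcnk3, an acid-inhibited tandem-pore channel, had 7.15, 7.32 and 7.28 in deficient colon, against 7.61, 7.66 and 7.56 in control colon (log2 difference -0.36, limma adjusted p = 0.00168), but its other 2 probe sets, at 0.15 and -0.14, did not pass, and the mean over its probe sets, -0.12, did not pass either. All 8 smooth muscle markers were lower, at -0.69 to -0.13, and their mean signal was 11.87 to 11.92 on deficient arrays, against 12.35 to 12.37 on control arrays. The part of the muscle content of the samples in these channel values was not tested.

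Neuronal channels gave 1 higher and 4 lower genes of 23 measured (21.7% passed, beside 50.4% of all genes), with a median log2 fold change of -0.07. The higher gene was Trpv1. The lower ones were Kcnip4, Kcnq3, Kcna2 and Kcnc2. Kcnip4, a calcium-binding subunit of fast inactivating potassium channels, had 6.30, 6.36 and 6.37 in deficient colon, against 6.90, 6.75 and 6.71 in control colon (log2 difference -0.45, limma adjusted p = 0.00062). A second Kcnip4 probe set was lower at -0.35, the third was at 0.18 and did not pass, and the mean over the 3 was -0.21. Kcnq3, a pore of the M current, fell by 0.43, but its second probe set, at -0.14, did not pass. Of the 4 Kcna2 probe sets, 2 were lower. Of 9 measured enteric neuron markers, 4 were lower and none higher, and the list averaged 7.53 to 7.55 on deficient arrays, against 7.76 to 7.84 on control arrays.

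Among the silent, modifier subunits, which form no channel alone, Kcnf1 had 7.37, 7.45 and 7.47 in deficient colon, against 8.54, 8.49 and 8.55 in control colon (log2 difference -1.10, SE 0.0464, limma adjusted p = 2.26e-06). Its second probe set, at 7.28, 7.30 and 7.20 in deficient colon against 7.21, 7.23 and 7.34 in control colon, overlapped between the groups and had a log2 fold change of 0.00, so the fall rests on 1 of 2 probe sets. Kcng4 at -0.36 and Kcnv1 at -0.20 were lower with adjusted p of 0.03 and 0.0202 in limma. Kcng4 lost its call without any 1 control array and in the methods' t-test, and Kcnv1 without any 1 of 4 of the 6 arrays and as the mean of its probe sets (-0.06). Of the accessory subunits, Kcne4, which inhibits several voltage-gated channels in expression systems, had 8.16, 8.05 and 8.14 in deficient colon, against 8.77, 8.73 and 8.86 in control colon (log2 difference -0.67, limma adjusted p = 4.26e-05).

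Channels known from leukocytes were higher in 4 of 7 and lower in none, with a median log2 fold change of 0.21, beside 21.9% of all genes higher and 28.4% lower. The 4 were Kcnab2, Trpm2, Clic1 and Kcnn4, the last of which lost its call when any 1 array was left out. The second Kcnn4 probe set, at 0.10, did not pass. Kcnab2, a cytosolic beta subunit of voltage-gated channels, had 7.34, 7.25 and 7.28 in deficient colon, against 6.99, 6.87 and 6.76 in control colon (log2 difference 0.42, limma adjusted p = 0.00139). Its second probe set, at -0.05, did not pass. Trpm2, an oxidant-sensitive calcium channel of phagocytes, had 7.32, 7.37 and 7.36 in deficient colon, against 6.93, 7.06 and 7.03 in control colon (log2 difference 0.34, limma adjusted p = 0.000984). The second Trpm2 probe set went the other way, at -0.20, and did not pass. Kcna3, the voltage-gated channel of T cells, had 5.90, 6.12 and 5.97 in deficient colon and 5.96, 5.63 and 5.78 in control colon, and these overlapped (log2 fold change 0.21, limma adjusted p = 0.112). The list averaged 8.38 to 8.39 on deficient arrays, against 8.10 to 8.21 on control arrays. T cell markers were higher in 6 of 7 and averaged 7.60 to 7.65 on deficient arrays, against 6.87 to 6.95 on control arrays, B and plasma cell markers in 7 of 7 with 10.66 to 10.72 against 9.41 to 9.44, and macrophage markers in 6 of 8 with 9.24 to 9.26 against 8.62 to 8.67. The part of leukocyte content in the channel values was not tested.

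Besides the genes named by rule, 12 further channel genes passed: Kcnab2, Kcnab3, Trpm2 and Trpm8 as higher, and Kcna2, Kcnc2, Kcnd1, Kcnh8, Kcnk4, Kcnk10, Clca3a2 and Clic5 as lower. They are named here after their values were seen, and their log2 fold changes lie between -0.45 and 0.42. Of the 127 genes, 58 have 1 probe set and 69 have more. Among these 69 the brightest probe set passed in 28, and in 16 of the 28 a further probe set passed in the same direction. In 6 genes (Clcn5, Kcna1, Kcne1, Kcnj3, Kcnmb2 and Trpm3) only a dimmer probe set passed.

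The proteins that work with these channels in epithelial ion transport form a list of genes outside the 127. Of 28 measured, 5 were higher, 14 lower and 9 did not pass, with a median log2 fold change of -0.13. The share that passed was 67.9%, beside 50.4% of all genes. Most of the 28 lie above the 40th percentile of mean signal, where 60.7% of all genes passed, 26.4% as higher and 34.3% as lower. The 4 largest changes of the list were in both directions. Prkg2, the cGMP-dependent kinase that activates CFTR, was at 9.97 in deficient colon and 7.23 in control colon (log2 difference 2.74, limma adjusted p = 3.44e-06), and Guca2b, which encodes the peptide uroguanylin that raises cGMP, was at 11.21 in deficient colon and 10.21 in control colon (log2 difference 1.01, limma adjusted p = 2.11e-06). Slc4a4, the basolateral sodium-bicarbonate cotransporter, was at 9.96 in deficient colon and 11.58 in control colon (log2 difference -1.62, limma adjusted p = 1.6e-07), and Adcy6, an adenylyl cyclase, was at 10.46 in deficient colon and 11.38 in control colon (log2 difference -0.92, limma adjusted p = 4.23e-06).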

How the data were processed

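Total colon RNA of 3 HDAC1/2 deficient and 3 control mice, per the study's methods, was hybridized to Affymetrix mouse genome arrays. There were 3 arrays per group, with groups taken from the labels, and the mouse behind each array is not stated. The table deposited by the authors holds 1 log2 signal for each probe set and array, made with RMA (robust multi-array average, which corrects background and normalizes across arrays) in Flexarray 1.6.1, per the study's methods. RMA compresses the changes of dim probe sets. Of 45101 probe sets 64 control probe sets were left out, and 45037 entered a linear model of deficient minus control without covariates (lmFit, eBayes, two-sided; limma 3.58.1, R 4.3.3), with Benjamini-Hochberg adjustment over all of them and a threshold of 0.05. More than 2-fold means an absolute log2 fold change above 1. SE is limma's standard error after variance moderation. Symbols came from the platform annotation, in which 34945 probe sets have 1 symbol, 932 several and 9160 none, and only those with 1 were used for names.

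The channel genes, gene lists and marker lists were chosen with earlier results of these data known, so list counts are descriptions without a test. A single letter and number after the first number, as in Clca3a1, was accepted in a symbol. Genes named with values are those changed more than 2-fold, the 3 largest called changes of each class, the colonic epithelium list, the 4 largest changes among its partners, Hdac1 and Hdac2. Other lists are given by counts with their largest changes, and other names are marked. Motifs and base composition were computed in Python 3.11.15, and figures drawn with matplotlib 3.10.9.

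The alternatives comprised the methods' t-test, adjusted or not, quantile normalization, centring, a filter at the 40th percentile of mean signal, trend and robust settings, array weights, other choices of probe set, the replicate number as a block, each array left out, and a strict and a wide reading of the symbols. The scripts were tested on simulated data. Arrays of 1 group correlated at 0.9984 to 0.9988 across probe sets. Their number limits the precision, and p-values measure the spread between these arrays. It is a spread between mice only if each array held RNA of 1 mouse. No scan batch is named in the labels or methods.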

Additional observations from a re-analysis of the deposited data

How the results depend on the processing

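Of 46 named genes, 35 kept their direction and call under every alternative run, and 699 of 731 values kept both. Counts of higher and lower channel genes, 16 and 33, ranged over 14 to 17 and 30 to 36 when 1 array was left out, with 3 and 3 more than 2-fold each time. If no letter may follow the number in a symbol, 122 genes remain, without Clca4a, Clca4b, Clca3a1, Clca3a2 and Clca3b, and only 1 gene, Trpv1, is more than 2-fold higher. If anything may follow it, 129 genes gave 17 higher and 34 lower, 4 and 3 of them more than 2-fold. The list of colonic epithelium channels, 6 higher and 12 lower, had 5 to 7 higher and 12 lower under each of the other settings that were run, and with Clca4a and Clca4b added, a choice made after seeing the data, its mean log2 fold change was 0.09 in place of -0.22. The methods' t-test gave 15 higher and 29 lower before and 12 and 26 after Benjamini-Hochberg adjustment.

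Trpm6, at -0.01, was positive after quantile normalization (0.02), as the mean of its probe sets (0.07), without HDAC1/2 KO replicate 1 (0.00) and without control replicate 1 (0.01). Hdac2, at 0.05, was -0.07 without probe sets of shared sequence and -0.02 as the mean of its probe sets. As means over their probe sets, Kcnd3 and Kcnk3 at -0.12 and Kcnv1 at -0.06 no longer passed, Kcnma1 was -0.14, Kcnf1 -0.55, Kcnip4 -0.21 and Clca1 -1.03, and Cftr passed at 0.12 (limma adjusted p = 0.0289). Cftr also passed with trend and robust settings (limma adjusted p = 0.0164). Kcng4 lost its call without any 1 control array (limma adjusted p 0.0509 to 0.096), and Kcnv1 without HDAC1/2 KO replicate 1 or 2 or control replicate 1 or 2 (0.0512 to 0.0635). Kcng4, Kcnj16, Kcnq3, Kcnv1 and Trpc2 did not pass the methods' t-test after adjustment. The causes were not tested.

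Arrays with the same replicate number shared little, with correlations of their deviations from the group means of 0.0964, 0.064 and -0.0258. With the replicate number as a block, 16 channel genes were higher and 35 lower, 3 and 3 of them more than 2-fold, and Kcnn4 and Kcnv1 lost their calls (limma adjusted p = 0.0715 and 0.0533). Dim genes such as Kcnj16, Clca2 and Trpc2 lie near the background of the array, which limits their fold changes.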
